A study of Homo sapiens with 8 samples.

Results

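Of the 46 protein-coding genes in the deposited table that encode matrix metalloproteinases (MMP), ADAMTS proteases or tissue inhibitors of metalloproteinases (TIMP), 23 are MMP, 19 ADAMTS and 4 TIMP genes. They were selected by gene symbol and biotype from 58735 annotated genes. The rule used no measured value, but earlier results of these data were known when the members were chosen. RNA sequencing had been done on HepaRG, a human hepatic progenitor cell line, and on M14A, a gene-edited HepaRG derivative. Flask HepaRG (3 libraries, genotype WT) and flask M14A (3 libraries, genotype FoxM1/HNF4A transfected) came from planar culture, and the cells were detached and pelleted before extraction. Printed M14A (2 libraries, the same genotype) was M14A mixed into a bioink called GP, bioprinted, and frozen 4 h after printing as a whole construct that was then ground, so printing and the way of collection cannot be told apart. M14A is a single derived line, and the labels do not say whether replicates are separate cultures. The p-values below therefore measure only the spread between these libraries, which may be technical.

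MMPs are zinc-dependent endopeptidases that are made as inactive proenzymes and cleave collagens, gelatin, laminins and other matrix and cell-surface proteins. ADAMTS enzymes are secreted relatives with thrombospondin repeats that process procollagens, trim proteoglycans such as versican and aggrecan, or cleave von Willebrand factor. The 4 TIMPs bind active MMPs in a tight complex, and TIMP3 also inhibits several ADAMTS and ADAM proteases. In liver, the balance of these enzymes and inhibitors is best known from fibrosis and its resolution, where stellate cells, macrophages and bile duct epithelium are main sources.

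MMP7 had the largest difference between printed and flask-grown M14A among the members tested, so its promoter is shown. Beside it are those of MMP10 and MMP20 from the same gene cluster on chromosome 11. Both also hold matches to the AP-1 and TATA patterns searched, though not with the same AP-1 letters, and were near 0. Each is the stretch of 250 bases before the RefSeq transcription start (GRCh38.p14, minus strand, written 5′ to 3′), at chr11:102530748-102530997 for MMP7, chr11:102780629-102780878 for MMP10 and chr11:102625333-102625582 for MMP20. Capitals mark matches on either strand to the AP-1 motif TGANTCA, the TATA motif TATAAA and the ETS motif AGGAAG.
MMP7: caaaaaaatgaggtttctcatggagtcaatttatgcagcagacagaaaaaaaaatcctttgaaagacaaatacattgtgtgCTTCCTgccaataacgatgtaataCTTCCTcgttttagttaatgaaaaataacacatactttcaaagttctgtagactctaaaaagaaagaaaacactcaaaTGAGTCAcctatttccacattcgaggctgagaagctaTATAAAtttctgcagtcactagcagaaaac
MMP10: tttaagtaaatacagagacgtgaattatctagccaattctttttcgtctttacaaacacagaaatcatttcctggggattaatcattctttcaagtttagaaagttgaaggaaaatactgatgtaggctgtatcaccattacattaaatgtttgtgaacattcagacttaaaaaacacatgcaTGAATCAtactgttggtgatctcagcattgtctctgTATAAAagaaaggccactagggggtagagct
MMP20: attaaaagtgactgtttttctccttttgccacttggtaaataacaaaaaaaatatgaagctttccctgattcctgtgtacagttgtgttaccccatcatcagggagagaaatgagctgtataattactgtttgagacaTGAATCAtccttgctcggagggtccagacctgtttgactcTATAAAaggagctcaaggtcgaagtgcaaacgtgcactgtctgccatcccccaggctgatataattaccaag
The AP-1 match reads TGAGTCA in MMP7 but TGAATCA in MMP10 and MMP20. It lay 67 to 61 bases before the start in MMP7 and in MMP10, and 112 to 106 bases before it in MMP20. The TATA match lay 30 to 25 bases before the start in MMP7, 31 to 26 in MMP10 and 72 to 67 in MMP20. MMP7 also held ETS matches 169 to 164 and 145 to 140 bases before its start. Windows were found for 27 of the 46 members, and ADAMTS12 was the only other one with an AP-1 match. MMP1, MMP3, MMP12 and MMP13 of the same cluster had no window and were not searched. Over all 35116 RefSeq windows cut to the same length, 6.57% held the AP-1 motif, 10.7% the TATA motif and 28.7% the ETS motif. The motifs CTTTGAT (TCF) and CAAAGTCCA (HNF4), searched in the same way, were in no member's window and in 2.26% and 0.325% of all windows. These matches describe letters in the windows and no binding was measured.

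Expression was given as FPKM, a level per gene length and a size value of each library, from which whole reads were recovered (15632154 to 19148262 per library). Divided by the recovered reads, that size value was 1.18 to 1.20 in flask HepaRG. It was 0.968 to 1.19 in flask M14A, and 0.818 and 0.853 in printed M14A. The deposited FPKM are thus not scaled to the recovered reads alone, and how the size value was set is not stated. FPKM sum to 254141 to 266419 in HepaRG, 272290 to 350931 in flask M14A, and 514152 and 499995 in printed M14A. HNF4A stood at 5.67 to 6.50 FPKM in flask HepaRG, 37.9 to 43.1 in flask M14A, and 17.1 and 13.6 in printed M14A, while FOXM1 stood between 8.92 and 14.9 in all 8 libraries. Of 9 hepatocyte markers, 4 averaged at least 1 FPKM in flask HepaRG, 5 in flask M14A and 6 in printed M14A. Albumin (ALB) was at 2.01 to 2.42, 23.1 to 29.1, and 79.1 and 83.3 FPKM, but transthyretin (TTR) stayed at or under 0.283 FPKM in every library. Flask M14A library 1 stood apart from its group, with Pearson correlations across genes of 0.957 and 0.948 with libraries 2 and 3, against 0.988 between those. Mitochondrially encoded genes took 6.91 to 7.25% of reads in flask HepaRG, 8.21 to 9.72% in flask M14A, and 13.3 and 16.4% in printed M14A.

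Members ranged from 0 to 263 FPKM. On the FPKM scale, which is per length and so allows genes to be compared, MMP14 led in flask HepaRG with a mean of 117 ± 2.11 (SD, n = 3), followed by TIMP1 at 85.7 ± 2.43 and TIMP2 at 58.2 ± 0.874. These 3 did not overlap, whereas the next, MMP15 and MMP2, both averaged 19.9 and overlapped. In flask M14A TIMP1 led with a mean of 130, above every value of MMP14 (mean 83.1). MMP14, MMP15 (63.3) and TIMP2 (51.7) came next, and each overlapped its neighbour in that order. In printed M14A TIMP1 averaged 248, MMP14 70.8, TIMP2 43.9, MMP7 40.6 and MMP15 39.2, and the last 3 overlapped. A total of 18 members (8 MMP, 7 ADAMTS and 3 TIMP genes) reached 1 FPKM in at least 2 libraries and were tested. Of these, 10 were at 1 FPKM or more in all 8 libraries.

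**Figure D1:**
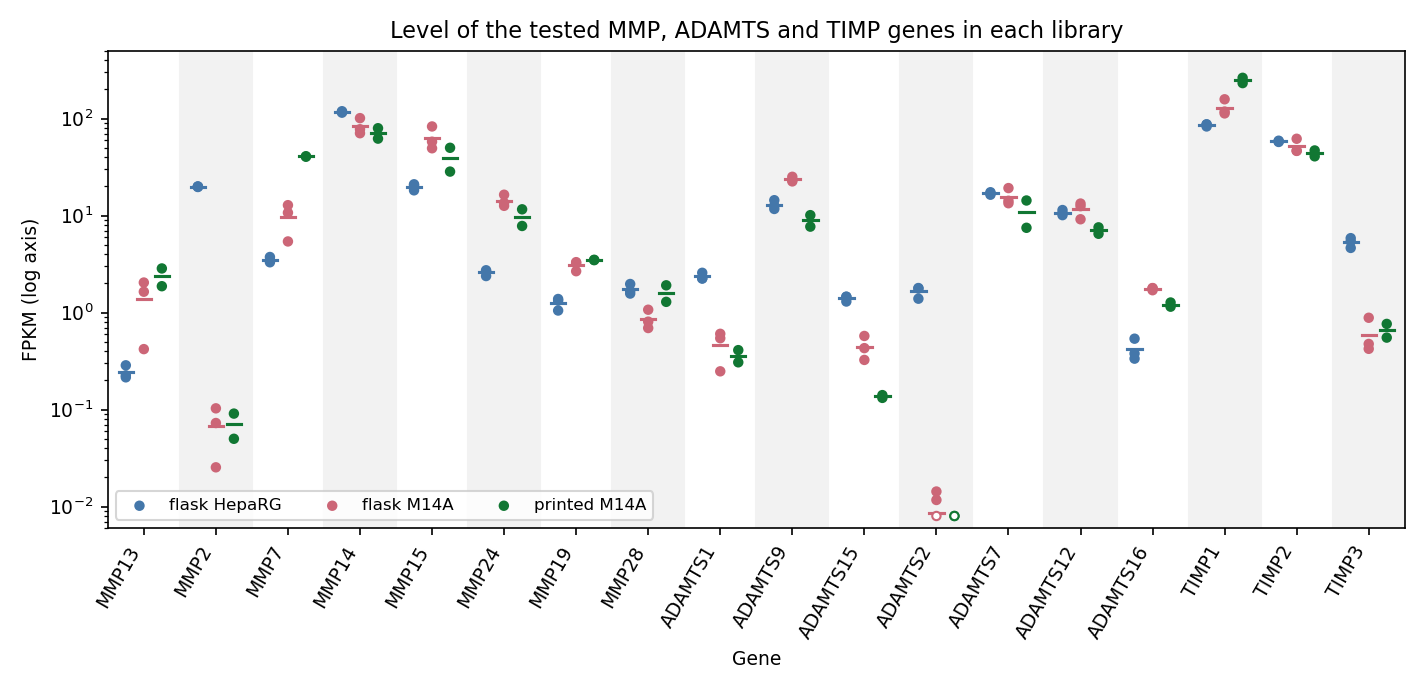
FPKM on a log axis for the 18 members tested, 1 point per library and a short line at each group mean. Open circles at the lower edge are libraries with 0 reads (ADAMTS2 only). MMP2 is near 20 FPKM in the HepaRG libraries and at or under 0.103 in all others, and MMP7 is highest in the printed libraries.

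The first question is what separates the transfected line from unmodified HepaRG when both grow in flasks. M14A carried almost no MMP2 or ADAMTS2 and 8.93-fold less TIMP3 RNA than HepaRG, and more RNA of the membrane-type enzymes MMP15 and MMP24, of MMP7 and of ADAMTS9. Of the 18 members tested, 8 were called higher and 7 lower (limma, with p adjusted by Benjamini-Hochberg across the whole table and a threshold of 0.05), and 3 were not called. Of the 14349 genes tested, 16.1% were called higher and 14.7% lower, 30.9% in either direction, so calls were frequent throughout. The same 8 and 7 members had groups that did not overlap, against 25.7 and 27.4% of all genes. The counts of members cannot be read as an excess, because 5 of those tested (MMP2, TIMP3, ADAMTS1, ADAMTS2 and ADAMTS15) passed the filter through HepaRG libraries alone and 2 (MMP13 and ADAMTS16) through M14A libraries alone. The median log2 fold change of the 18 was -0.01, beside -0.04 for all genes. Log2 fold changes are differences of log2(FPKM + 1), and for low genes they are smaller than the true change. Some of those given for alternative settings are on other scales. In bulk RNA, fewer cells that make a transcript and less of it per cell cannot be told apart.

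**Figure D2:**
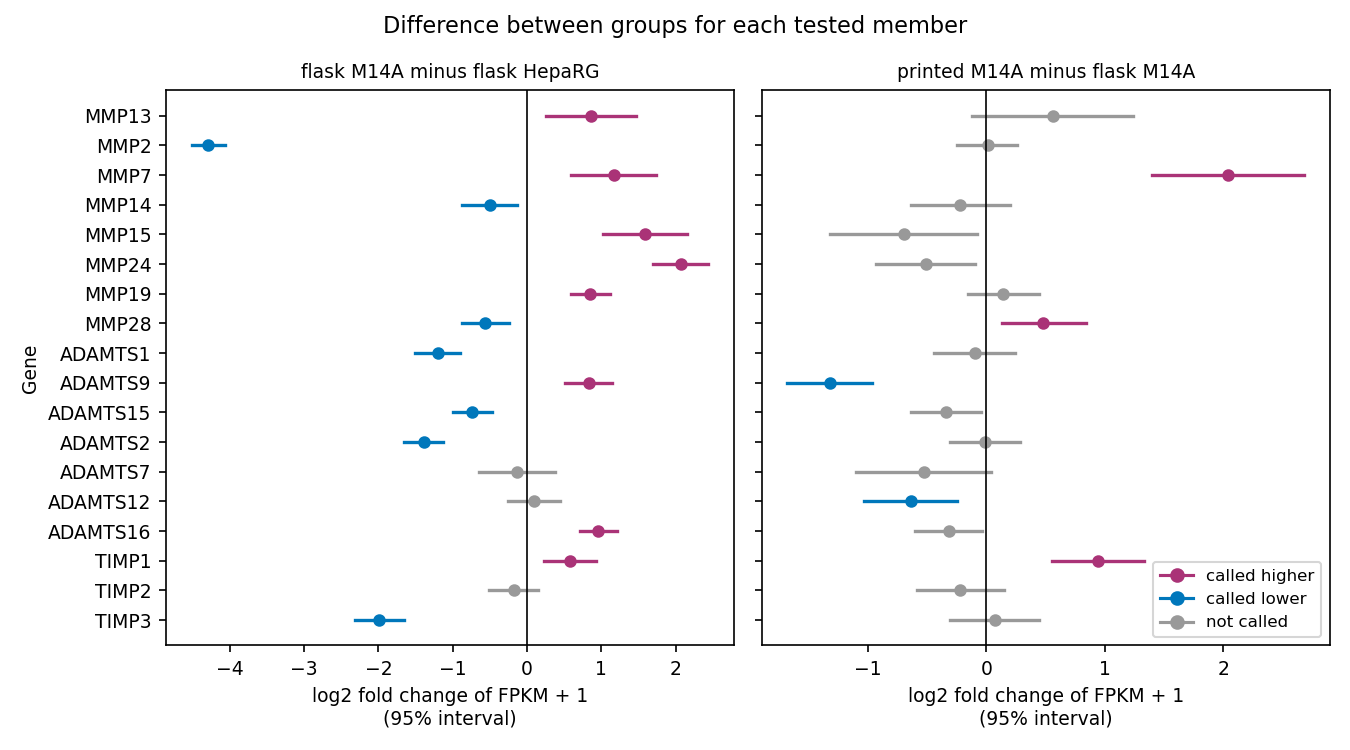
Log2 fold change of FPKM + 1 with its 95% interval for each member tested, flask M14A minus flask HepaRG on the left and printed M14A minus flask M14A on the right, on different horizontal scales. Colour gives the call at an adjusted p below 0.05. MMP2 at -4.29 is the farthest from 0 on the left and MMP7 at 2.04 on the right. The panels share the flask M14A libraries.

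MMP2, the gelatinase that is made by mesenchymal cells and activated by MMP14 together with TIMP2, had the largest difference (ENSG00000087245, GRCh38 chromosome 16, 55389700 to 55506691). HepaRG libraries held 19.97, 19.9 and 19.7 FPKM and flask M14A libraries 0.0254, 0.0727 and 0.103 FPKM. In reads, M14A had 2, 7 and 10, against 1855 to 2256 reads per HepaRG library. Over summed reads MMP2 was 285-fold higher in HepaRG, with a 95% interval of 182 to 473 that covers counting error only. The log2 fold change was -4.29 (SE 0.099, adjusted p = 4.1e-08), and it was called under all 23 alternative settings, between -8.23 and -4.23. The value of -8.23 is from voom on recovered reads, which is on another scale. The other gelatinase, MMP9, had no read in HepaRG and 7, 0 and 5 reads in the flask M14A libraries. Its M14A mean was 4.80-fold above a floor of 3 reads in the 3 HepaRG libraries together. This ratio leaves out counting error in the M14A reads and is not a lower bound. The groups of MMP9 overlapped at 0, and with no filter it was not called (adjusted p = 0.23). Exons of SLC12A5-AS1 on the opposite strand cover 18.4% of the exon bases of MMP9, and the strand setting is not stated.

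Among collagenases, MMP13 stood at 0.225, 0.215 and 0.286 FPKM in HepaRG and at 0.420, 1.64 and 2.04 in flask M14A (log2 fold change 0.86, SE 0.27, adjusted p = 0.039). Library 1 of flask M14A was close to HepaRG and the other 2 far above. The call of MMP13 was lost when any of the 7 libraries apart from flask M14A library 1 was left out (adjusted p = 0.051 to 0.10, log2 fold change 0.64 to 0.88) and at equal FPKM totals (adjusted p = 0.060). MMP7, a small secreted matrilysin without a hemopexin domain that is known from bile duct epithelium, stood at 3.47, 3.30 and 3.74 FPKM in HepaRG and at 5.41, 10.7 and 12.8 in flask M14A. The groups did not overlap, and again library 1 was the lowest of M14A (log2 fold change 1.17, SE 0.25, adjusted p = 0.0085). MMP19, which cleaves basement membrane proteins, rose from 1.05, 1.33 and 1.38 FPKM to 3.31, 2.67 and 3.24 FPKM (log2 fold change 0.85, SE 0.12, adjusted p = 7.7e-04), with 17.4% of its exon bases in an exon of a gene on the other strand. MMP28 (epilysin) fell from 1.67, 1.57 and 1.97 FPKM to 1.07, 0.806 and 0.693 FPKM (log2 fold change -0.56, SE 0.14, adjusted p = 0.016). Its call was lost without flask HepaRG library 1 (adjusted p = 0.051) or library 3 (adjusted p = 0.071).

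The membrane-type enzymes, which act at the cell surface, went in different directions. MMP15 was at 18.2, 21.0 and 20.5 FPKM in HepaRG and at 82.9, 57.7 and 49.4 in flask M14A, a 3.18-fold rise of the mean (log2 fold change 1.59, SE 0.24, adjusted p = 0.0014). MMP24 went from 2.73, 2.66 and 2.38 FPKM to 16.4, 13.5 and 12.6 FPKM, a 5.46-fold rise of the mean (log2 fold change 2.07, SE 0.16, adjusted p = 3.0e-05). Exons of genes on the opposite strand, MMP24OS among them, cover 21.8% of the exon bases of MMP24, and without a stated strand setting their reads cannot be told apart. MMP14, the main activator of MMP2, stood at 115, 117 and 119 FPKM in HepaRG and at 101, 77.6 and 70.6 in flask M14A (log2 fold change -0.50, SE 0.16, adjusted p = 0.047). Every M14A library was below every HepaRG library, but the call of MMP14 was lost on leaving out each of the same 7 libraries (adjusted p = 0.051 to 0.14) and with median-ratio scaling (adjusted p = 0.051).

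Proteoglycan-cleaving ADAMTS genes were also split. ADAMTS9, which cleaves versican and aggrecan, rose from 11.7, 14.4 and 12.6 FPKM to 22.5, 25.1 and 23.2 FPKM (log2 fold change 0.83, SE 0.14, adjusted p = 0.0024). ADAMTS1, of the same group of enzymes, fell from 2.26, 2.57 and 2.24 FPKM to 0.248, 0.544 and 0.604 FPKM (log2 fold change -1.20, SE 0.13, adjusted p = 2.1e-04). ADAMTS15 fell from 1.46, 1.45 and 1.30 FPKM to 0.574, 0.325 and 0.430 FPKM (log2 fold change -0.74, SE 0.12, adjusted p = 0.0016). In all 3 genes the groups were apart. ADAMTS2, the procollagen N-proteinase, had 228, 360 and 323 reads in HepaRG (1.39, 1.79 and 1.77 FPKM) and 2, 2 and 0 reads in flask M14A. Over summed reads ADAMTS2 was 200-fold higher in HepaRG (95% interval 78.0 to 737, counting error only), and its log2 fold change was -1.39 (SE 0.12, adjusted p = 4.4e-05). ADAMTS16 rose from 0.335, 0.378 and 0.538 FPKM to 1.70, 1.78 and 1.79 FPKM (log2 fold change 0.96, SE 0.11, adjusted p = 2.7e-04).

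ADAMTS7 and ADAMTS12, a related pair known to degrade cartilage oligomeric matrix protein, were abundant and overlapped between the lines. ADAMTS12 was at 10.1, 11.4 and 10.6 FPKM in HepaRG and 9.16, 13.3 and 12.5 in flask M14A (log2 fold change 0.10, 95% interval -0.25 to 0.45, adjusted p = 0.65), and its sign changed at equal FPKM totals (-0.09). ADAMTS7 was at 16.4, 17.4 and 17.0 FPKM and at 19.2, 14.2 and 13.4 FPKM (log2 fold change -0.13, 95% interval -0.64 to 0.38, adjusted p = 0.69). ADAMTS7 has transcribed pseudogene copies, so its value is uncertain. ADAMTS7P1 was at 0.0784 to 0.109 FPKM in HepaRG and at 1.08 to 1.95 FPKM in flask M14A.

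The inhibitors moved apart. TIMP3, which binds to the extracellular matrix, stood at 5.42, 4.64 and 5.85 FPKM in HepaRG and at 0.884, 0.423 and 0.475 in flask M14A, 8.93-fold lower in the mean (log2 fold change -1.99, SE 0.15, adjusted p = 2.1e-05). TIMP1, a soluble inhibitor that is induced in injured liver, stood at 87.1, 82.9 and 87.0 FPKM in HepaRG and at 158, 118 and 113 in flask M14A (log2 fold change 0.58, SE 0.15, adjusted p = 0.021). All M14A values of TIMP1 were above all HepaRG values, but the call was lost without flask HepaRG library 1, 2 or 3 (adjusted p = 0.072, 0.082 and 0.070). TIMP2 was at 58.1, 59.1 and 57.4 FPKM and at 61.9, 46.4 and 46.7 FPKM, with flask M14A library 1 above HepaRG and libraries 2 and 3 below. Its log2 fold change was -0.18 (95% interval -0.51 to 0.15, adjusted p = 0.37), and it was called lower without flask M14A library 1 (-0.32, adjusted p = 0.015) and at equal FPKM totals (-0.38, adjusted p = 0.0061). Of 10 stellate cell and fibroblast markers, 7 averaged at least 1 FPKM in flask HepaRG and 4 in flask M14A. Their summed level was 49.7 to 53.0 FPKM in flask HepaRG, 97.4 to 104 in flask M14A and 164 to 174 in printed M14A, with COL1A2 at or under 0.00911 FPKM throughout. The sum is carried by DES, DCN, LUM and ACTA2, of which DCN and ACTA2 were called higher in flask M14A than in HepaRG (log2 fold change 2.73 and 2.30, adjusted p = 8.1e-05 and 1.0e-05). PDGFRB, COL1A1 and LRAT were called lower, as were MMP2, TIMP3 and ADAMTS2. PDGFRB went from 1.58 to 1.94 FPKM in HepaRG down to 0.0498 to 0.0877 FPKM (log2 fold change -1.39, adjusted p = 3.7e-05), and COL1A1 had a log2 fold change of -0.72 (adjusted p = 0.0064). The part of these markers' cells in the results was not tested.

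The comparison of printed with flask-grown M14A asks what differs 4 h after printing. MMP7 rose 4.22-fold and TIMP1 1.91-fold in the mean, while the long transcripts ADAMTS9 and ADAMTS12 fell. Of 18 members tested, 3 were called higher (MMP7, TIMP1 and MMP28) and 2 lower (ADAMTS9 and ADAMTS12), against 17.7% and 15.5% of all genes tested (33.2% in either direction). The groups of 4 and 5 members did not overlap, against 26.9% and 24.4% of all genes. The median log2 fold change was -0.16 for the members and 0.01 for all genes. Of the 18, 5 (MMP2, TIMP3, ADAMTS1, ADAMTS2 and ADAMTS15) passed the filter through HepaRG libraries alone, which are not in this comparison. They were under 1 FPKM in every M14A library, where log2(FPKM + 1) leaves little room for a call. With only the groups compared, 13 members were tested, 2 called higher and 1 lower. The counts therefore cannot be read as a deficit. The split of the 18 also depends on scaling. At equal FPKM totals, where the median of all genes moved to -0.51, 1 member was called higher and 10 lower, and over all genes 483 and 6779 instead of 2544 and 2226. Leaving mitochondrial genes out of the total (median -0.39) gave 2 and 9 members, and quantile normalization 2 and 6. Printed libraries also had the higher FPKM totals and mitochondrial shares given above. This comparison shares the flask M14A libraries with the one above.

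MMP7 stood at 5.41, 10.7 and 12.8 FPKM in flask M14A and at 40.4 and 40.9 FPKM in printed cells (ENSG00000137673, chromosome 11, 102520508 to 102530753). Its log2 fold change was 2.04 (SE 0.28, adjusted p = 0.0015), the mean was 4.22-fold higher, and the values rest on 201 to 584 reads per flask library and 1255 and 1541 per printed library. Both printed libraries were above every other library of the series. The rise of MMP7 was called under all 23 alternative settings, between 1.31 (equal FPKM totals, adjusted p = 0.022) and 2.27. Of 6 biliary and progenitor markers, the bile duct keratin KRT7 moved with MMP7, at 0.455 to 0.468 FPKM in flask HepaRG, 1.82 to 2.22 in flask M14A, and 6.66 and 4.82 in printed M14A. KRT7 was called higher in both comparisons (log2 fold change 1.05 and 1.14, adjusted p = 4.3e-04 and 0.0012). The others did not follow: SOX9, CD24 and SPP1 were called lower in flask M14A than in HepaRG and not called in printed cells, KRT19 was not called in either, and EPCAM stood at 0.0863 to 0.253 FPKM in HepaRG and at 0 in every M14A library. The summed level of the 6 was 116 to 121 FPKM in flask HepaRG, 26.3 to 62.0 in flask M14A, and 46.9 to 50.3 in printed M14A, with 4 of 6 averaging at least 1 FPKM in each group. The part of such cells in the result was not tested.

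MMP7 is the first gene of a cluster of 9 MMP genes on chromosome 11 (102520508 to 102955734), and MMP1 and MMP3 in it were low but highest in the printed cells. MMP1, the interstitial collagenase, was at 0.222, 0.364 and 0.413 FPKM in flask M14A and at 0.948 and 1.06 FPKM in printed cells, from 7 to 16 and from 25 and 34 reads. MMP3, stromelysin, was at 0.0306, 0.175 and 0.149 FPKM and at 0.438 and 0.602 FPKM. Neither passed the filter. Without it, MMP1 and MMP3 were called higher in printed cells (log2 fold change 0.59 and 0.44, adjusted p = 0.018 and 0.017) and were the only members outside the filter called in this comparison. MMP13, at the other end of the cluster, stood at 2.85 and 1.87 FPKM in printed cells and overlapped flask M14A (log2 fold change 0.56, 95% interval -0.12 to 1.24, adjusted p = 0.18). MMP12 lay lower in printed cells, at 0.0399 and 0.0329 FPKM (1 read each) against 0.0668, 0.109 and 0.0542 in flask M14A, and was not called (adjusted p = 0.31 with no filter). MMP20 (enamelysin) was at 0.264 and 0.121 FPKM in printed cells (9 and 5 reads) and at or under 0.120 FPKM in every flask library. With no filter it was not called (adjusted p = 0.32). MMP10 (stromelysin 2) had 1 read in a HepaRG library and 1 in a printed library. MMP20 and MMP10 have the AP-1 and TATA matches shown above. MMP8 and MMP27 had no read in any library.

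**Figure D3:**
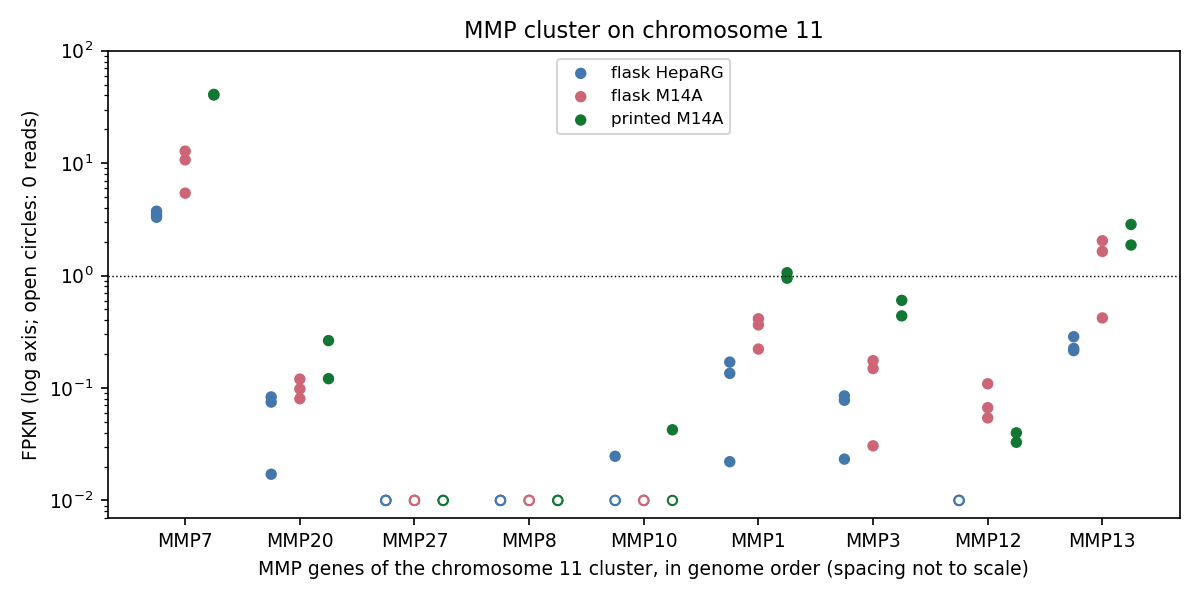
FPKM on a log axis for the 9 MMP genes of the chromosome 11 cluster in genome order, 1 point per library, with a dotted line at 1 FPKM. Open circles are libraries with 0 reads and are drawn at a fixed height. In MMP7, MMP1, MMP3 and MMP20 both printed libraries lie above all flask libraries, in MMP20 narrowly (0.121 against 0.120 FPKM).

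TIMP1 stood at 158, 118 and 113 FPKM in flask M14A and at 263 and 232 FPKM in printed cells, with no overlap (log2 fold change 0.94, SE 0.17, adjusted p = 0.0044). The call of TIMP1 was lost at equal FPKM totals (0.18, adjusted p = 0.088) and with quantile normalization (0.09, adjusted p = 0.32), and it kept its direction in both. MMP28 was at 1.07, 0.806 and 0.693 FPKM and at 1.91 and 1.29 FPKM (log2 fold change 0.48, SE 0.16, adjusted p = 0.044). Its call was lost under 12 of 22 alternatives, among them each HepaRG library, flask M14A library 2 or 3 or printed library 1 left out (adjusted p = 0.066 to 0.28) and equal FPKM totals (0.07, adjusted p = 0.67). ADAMTS9 stood at 22.5, 25.1 and 23.2 FPKM in flask M14A and fell to 7.69 and 10.1 FPKM (log2 fold change -1.32, SE 0.16, adjusted p = 9.5e-04), also below the 3 HepaRG libraries, and was called under all 23 alternatives. ADAMTS12 fell from 9.16, 13.3 and 12.5 FPKM to 6.49 and 7.56 FPKM (log2 fold change -0.64, SE 0.17, adjusted p = 0.021). Its call was lost without flask M14A library 2 or 3 or either printed library (adjusted p = 0.051 to 0.13). With a printed library left out, the lone one is assumed to vary like the other groups.

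Gene length moved with these differences. Over all genes tested, the median log2 fold change from flask to printed cells was 0.21 for the 3454 genes under 2 kb, 0.20 for 3444 genes of 2 to 4 kb, -0.05 for 5033 of 4 to 8 kb and -0.25 for 2418 of 8 kb and over. TIMP1 (1541 bases), MMP7 (2323) and MMP28 (2858) are among the shorter members, and ADAMTS12 (9778) and ADAMTS9 (10680) among the longest. With the trend on length and GC content removed from each library, an alternative chosen after the data were seen, MMP7 was at 1.63, TIMP1 at 0.71, MMP28 at 0.41 and ADAMTS9 at -1.0, all still called, and ADAMTS12 lost its call at -0.33 (adjusted p = 0.093).

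**Figure D4:**
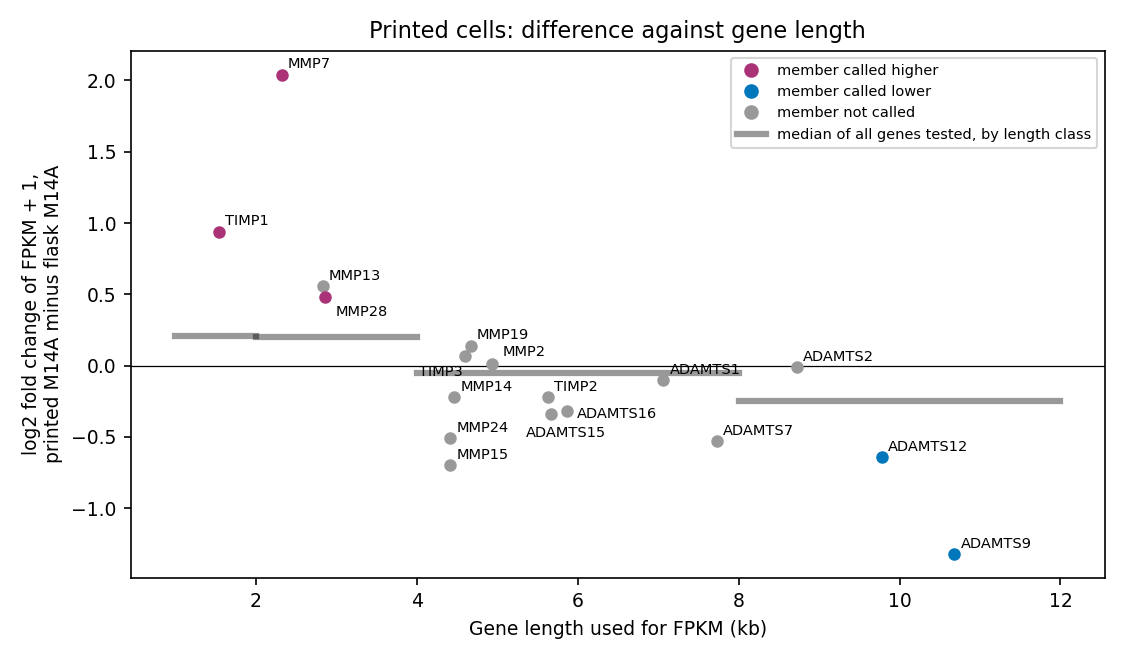
Log2 fold change of FPKM + 1, printed M14A minus flask M14A, against gene length in kb for the 18 members tested, coloured by call. Thick grey bars are the medians of all genes tested in 4 length classes, from 0.21 under 2 kb to -0.25 at 8 kb and over; the lowest and the highest class are drawn only in part. MMP7 and TIMP1 lie well above the bar of their class and ADAMTS9 well below.

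The membrane-type enzymes and TIMP2 were not called in printed cells. MMP14 was at 79.5 and 62.1 FPKM (log2 fold change -0.22, 95% interval -0.64 to 0.20) and TIMP2 at 46.9 and 40.8 FPKM (-0.22, 95% interval -0.59 to 0.15), both overlapping flask M14A. MMP15 was at 49.96 and 28.4 FPKM (-0.70, 95% interval -1.32 to -0.08, adjusted p = 0.081) and MMP24 at 11.6 and 7.81 FPKM (-0.51, 95% interval -0.93 to -0.10, adjusted p = 0.058). At equal FPKM totals these 4 genes were called lower, at -0.97, -0.97, -1.44 and -1.20 against the shifted median of -0.51. Without printed library 1, MMP15 (-1.09, adjusted p = 0.039), MMP24 (-0.77, adjusted p = 0.032) and ADAMTS7 (-0.95, adjusted p = 0.028) were called lower. These values set 1 printed library, assumed to vary like the other groups, against flask M14A. MMP15 and MMP24 were also called lower after removal of the trend on length and GC content (-0.59 and -0.42, adjusted p = 0.014 and 0.013). MMP2 and TIMP3 stayed at the low level of M14A after printing: MMP2 was at 0.0909 and 0.050 FPKM (6 and 4 reads) and TIMP3 at 0.552 and 0.764 FPKM. Their log2 fold changes were 0.01 (95% interval -0.25 to 0.26) and 0.07 (95% interval -0.31 to 0.44), and both changed sign at equal FPKM totals. MMP19 was at 3.50 and 3.47 FPKM, just above each flask library (log2 fold change 0.14, 95% interval -0.16 to 0.44, adjusted p = 0.44), and changed sign at equal FPKM totals (-0.43, adjusted p = 0.030). ADAMTS7 was at 14.3 and 7.48 FPKM and ADAMTS1 at 0.307 and 0.410 FPKM, both overlapping flask M14A. ADAMTS15 was at 0.132 and 0.141 FPKM and ADAMTS16 at 1.27 and 1.15 FPKM, all below flask M14A but with adjusted p of 0.074 and 0.077. ADAMTS15 was called lower at a pseudocount of 0.1 (-1.17, adjusted p = 0.022) and ADAMTS16 without flask M14A library 1 (-0.34, adjusted p = 0.037). ADAMTS2 had no read in either printed library.

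Within a library, the ratio of summed TIMP to summed MMP level does not change when all values are multiplied by a single factor. Quantile normalization is not such a scaling, and the ratio was not computed under it. This ratio was 0.925, 0.874 and 0.885 in flask HepaRG, 1.04, 0.993 and 1.05 in flask M14A, and 1.62 and 1.85 in printed M14A, so that the groups did not overlap. The summed TIMP level was 147 to 151, 160 to 221, and 311 and 274 FPKM, and the summed MMP level 163 to 170, 153 to 212, and 192 and 148 FPKM. TIMP1 made up 56.5 to 57.9% of the TIMP sum in flask HepaRG, 70.5 to 71.6% in flask M14A, and 84.7 and 84.8% in printed M14A. MMP14 made up 69.6 to 70.4% of the MMP sum in flask HepaRG, 46.1 to 47.6% in flask M14A, and 41.4 and 41.9% in printed cells. MMP7 went from 1.97 to 2.20% of the MMP sum in flask HepaRG and 2.55 to 8.35% in flask M14A to 21.0 and 27.6% in printed cells. The summed ADAMTS level was 45.1 to 51.0, 52.9 to 56.3, and 30.8 and 27.6 FPKM. These sums are descriptions with no test. TIMP1, which leads the TIMP sum, is also the shortest of the members tested, and the part of gene length in the ratio was not tested.

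**Figure D5:**
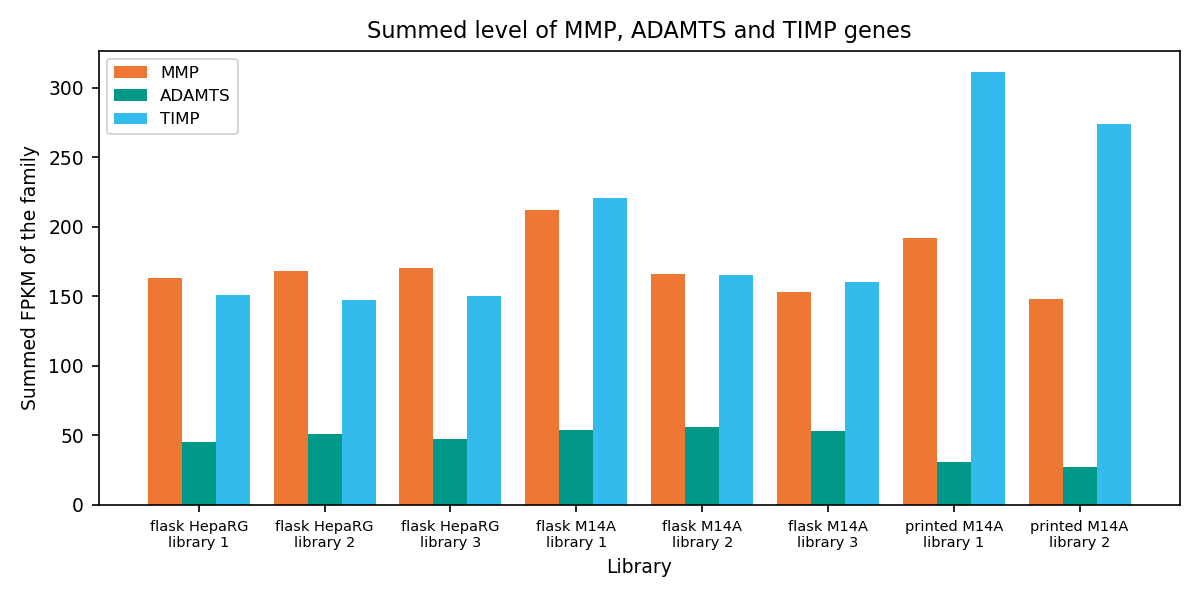
Summed FPKM of the 23 MMP, 19 ADAMTS and 4 TIMP genes in each library, as bars from 0. The TIMP bar is below the MMP bar in the 3 HepaRG libraries, close to it in flask M14A, and above it in both printed libraries.

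A further 28 members did not reach the filter (15 MMP, 12 ADAMTS and TIMP4). MMP8, MMP17, MMP26 and MMP27 had no read in any library, where 3 reads over the HepaRG group would be a mean of 0.0140, 0.0120, 0.0368 and 0.0252 FPKM. The highest value among the 28 was the 1.06 FPKM of MMP1 in a printed library. With no filter, 2 of the 28 were called between the flask-grown lines. MMP12, macrophage elastase, had 0 reads in HepaRG and 2, 4 and 2 in flask M14A (log2 fold change 0.11, adjusted p = 0.035). Its flask M14A mean was 2.99-fold the level that 3 HepaRG reads in total would give. Counting error in the 8 flask M14A reads is left out, so 2.99 is not a lower bound. ADAMTS17 was at 0.296, 0.412 and 0.336 FPKM in HepaRG and at 0.144, 0.0683 and 0.0432 in flask M14A (adjusted p = 0.014). ADAMTS8 and ADAMTS10 had 18 and 17 reads over the HepaRG libraries and none in flask M14A, with adjusted p of 0.065 and 0.19. Their HepaRG means were 5.42-fold and 4.95-fold above a floor of 3 reads over the flask M14A group. These ratios leave out counting error in the reads seen and are not lower bounds. The other low members with reads in at least 1 library were ADAMTS3, ADAMTS4, ADAMTS5, ADAMTS6, ADAMTS13, ADAMTS14, ADAMTS18, ADAMTS19, ADAMTS20, MMP11, MMP16, MMP21, MMP23B, MMP25 and TIMP4. None of these 15 was called with no filter in either comparison.

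Among 21 regulators of matrix proteolysis outside the families, 15 were tested. Between the flask-grown lines 6 of these were called higher and 3 lower, against 16.1% and 14.7% of all genes tested, with a median log2 fold change of 0.23. The liver serine protease hepsin (HPN) rose from 0.0283 to 0.0644 FPKM in the HepaRG libraries to 12.5, 6.95 and 6.81 FPKM (log2 fold change 3.17, SE 0.26, adjusted p = 4.2e-05). HPN thus passed the filter through M14A libraries alone. SPOCK3, counted as lower, was at 1.58 to 1.82 FPKM in HepaRG and at or under 0.489 in every M14A library. It passed through HepaRG libraries alone, so the counts of this list cannot be read as an excess. TFPI2, a secreted serine protease inhibitor, rose from 1.86, 2.04 and 1.55 FPKM to 14.1, 13.1 and 14 FPKM (log2 fold change 2.39, SE 0.11, adjusted p = 2.0e-06). Matricellular proteins went opposite ways, THBS1 with a log2 fold change of -2.96 and THBS2, which binds MMP2 for its clearance, with 1.99 (adjusted p = 1.2e-06 and 5.2e-06). In printed cells 2 of the 15 were called higher and 2 lower, against 17.7% and 15.5% of all genes. The MMP inducer basigin (BSG) was at 294 and 239 FPKM in printed cells against 197, 136 and 121 in flask M14A (log2 fold change 0.83, adjusted p = 0.017). TFPI2 was at 21.6 and 22.2 FPKM (log2 fold change 0.63, adjusted p = 0.0069). LRP1, the endocytic receptor that clears several MMP and inhibitor complexes, was at 14.4 and 10.8 FPKM against 39, 33 and 28 (log2 fold change -1.34, adjusted p = 0.0016), and THBS1 had a log2 fold change of -0.69 (adjusted p = 0.0084).

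Of 17 gene names listed as ADAM sheddases and ADAMTS-like proteins, 16 were found and 10 tested. In the flask-grown M14A line 2 of the 10 were called higher and 3 lower, again against 16.1% and 14.7% of all genes. ADAMTSL4, a microfibril-associated protein, rose from 3.72, 3.81 and 3.87 FPKM to 56.2, 61.2 and 53.4 FPKM (log2 fold change 3.59, SE 0.20, adjusted p = 4.4e-06). ADAM12 fell from 12, 13.5 and 12.8 FPKM to 0.844, 1.02 and 0.876 FPKM (log2 fold change -2.85, SE 0.10, adjusted p = 4.8e-07). PAPLN (papilin) and ADAM9 were also lower, with log2 fold changes of -1.13 and -0.88 (adjusted p = 0.0026 and 0.046). In printed cells 0 of the 10 were called higher and 1 lower (17.7% and 15.5% of all genes), ADAM19, from 2.25, 1.71 and 1.41 FPKM to 0.592 and 0.672 FPKM (log2 fold change -0.76, adjusted p = 0.0064). Of 7 astacin proteases and procollagen enhancers 3 were tested, too few to set against these shares. The procollagen C-proteinase BMP1 was called higher in flask M14A (log2 fold change 0.53, adjusted p = 0.025) and its enhancers PCOLCE and PCOLCE2 lower (-1.80 and -1.25, adjusted p = 3.4e-04 and 8.5e-05). PCOLCE2 was called higher in printed cells (log2 fold change 0.65, adjusted p = 0.0069). The median log2 fold changes of these 3 lists were 0.23, -0.23 and -1.25 between the flask-grown lines and 0.00, -0.11 and 0.65 in printed cells, beside -0.04 and 0.01 for all genes tested. Genes of these lists were not refitted under the other scalings.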

How the data were processed

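The values are FPKM per gene for 8 libraries, as deposited by the authors. HISAT2 2.0.5 and featureCounts 1.5.0-p3 are named in the submitters' processing notes, and for the strand setting, other options and genome build the sources used here give nothing. Coordinates of all 58735 genes equal those of GENCODE 29 on GRCh38. FPKM times gene length, the other deposited column used, is a whole multiple of 1 read within 0.01 in every library, and FPKM totals run from 254141 to 514152. Columns were matched by name, and 0 were left without a sample.

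The 14349 genes that reached 1 FPKM in 2 or more libraries entered 1 limma fit of log2(FPKM + 1) (version 3.58.1, R 4.3.3, eBayes with trend, all 8 libraries, 3 group means, two-sided). A call needed a p below 0.05 after Benjamini-Hochberg adjustment. The code was tested on simulated reads. Members and lists were chosen with earlier results of these data known. Named are members called in either comparison or averaging at least 1 FPKM in a group, and the called list genes with the largest changes (up to 4 per list and comparison). Counting intervals are exact Clopper-Pearson at 95%. Promoter windows come from RefSeq (GRCh38.p14). Alternatives changed the pseudocount, filter, scaling, libraries, eBayes trend, threshold and block, or used voom on recovered reads. The voom fit kept the library size values of the deposited FPKM. After the data were seen, 2 were added that remove the trend on gene length and GC content (natural splines, 5 degrees of freedom).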

Additional observations from a re-analysis of the deposited data

How the results depend on the processing

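Between the flask-grown lines, 11 of the 15 called members kept call and direction under every alternative that tested them, and MMP13, MMP14, MMP28 and TIMP1 lost it under some. Between printed and flask-grown M14A, MMP7 and ADAMTS9 kept theirs, and TIMP1, ADAMTS12 and MMP28 lost it under some. No called member changed direction. At a filter of 5 FPKM, 5 members were called higher and 3 lower between the lines, and 2341 genes in all, since fewer genes were tested. An adjusted p below 0.01 gave 2544 genes between the lines, and 2368 genes and 1 lower member in printed cells. In printed cells the lower members numbered 1 with no filter, 10 at equal FPKM totals (1 higher, 7262 genes), 9 at equal totals without mitochondrial genes, 6 with quantile normalization and 1 with only the groups compared (2416 genes). Leaving out 1 library gave 1 to 4 lower members in printed cells (4 without printed library 1, and 1 without printed library 2 or flask M14A library 2 or 3). It gave 2495 to 7889 genes there, with 2495 and 2751 without printed library 1 and 2 and 7889 without flask M14A library 1. Between the lines it gave 2788 to 6117 genes, with 2788, 2851 and 2865 without HepaRG library 1, 2 and 3. Without flask M14A library 1 and with the trend on length and GC removed, 5 members were lower in printed cells, and 7253 and 8256 genes were called. The cause of these shifts was not tested.

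Differences that changed sign were small and not called, except MMP19 in printed cells at equal FPKM totals (-0.43, called). ADAMTS12 between the lines went to -0.09 at equal totals and -0.02 without mitochondrial genes. In printed cells these 2 scalings gave -0.04 and -0.04 for MMP2, -0.19 and -0.13 for TIMP3 and, without mitochondrial genes, -0.30 for MMP19. Quantile normalization gave 0.14 for ADAMTS1. Leaving out 1 library gave -0.02 to 0.03 for MMP2 and -0.03 to 0.19 for TIMP3. Removing the length and GC trend gave 0.10 for ADAMTS1 and 0.38 for ADAMTS2, and 0.27 for ADAMTS2 and -0.05 for MMP2 when flask M14A library 1 was also left out.

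The replicate numbers do not pair the samples by any label, and the correlations of same-numbered deviations were -0.07, 0.08 and -0.16 between the flask-grown lines and 0.49 and 0.36 between flask M14A and printed. Flask M14A library 3 and printed library 2, of unlike number, had 0.43. With 2 printed libraries the deviations mirror each other, so the values with printed libraries are not independent. With the replicate number as a block, 8 members were higher and 7 lower between the lines, and 2 and 3 in printed cells, where MMP24 was called (-0.57, adjusted p = 0.038), MMP28 lost its call (0.48, adjusted p = 0.066) and ADAMTS2 went to 0.00. Depth limits the low members: 3 reads over the HepaRG group correspond to 0.0368 FPKM for the shortest of those without a read, MMP26.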
